A study of Homo sapiens with 4 samples.

Results

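The genes described here are 40 genes of the cell cycle, DNA replication and the mitotic spindle that carried N4-acetylcytidine (ac4C) peaks in FaDu cells. They were picked by gene symbol, as every gene with a row in the authors' table of differential ac4C peaks whose symbol begins like those of the cyclins (CCN), cyclin-dependent kinases and their inhibitors (CDK), cell division cycle genes (CDC), E2F factors, minichromosome maintenance proteins (MCM), DNA polymerases delta and epsilon (POLD, POLE), anaphase-promoting complex subunits (ANAPC), kinesins (KIF), centromere and centrosome proteins (CENP, CEP), tubulins (TUBA, TUBB, TUBG) and mitotic-spindle organising proteins (MZT). They were 40 of 2483 genes with a differential peak and of 6723 genes with a peak in either condition. The letters also caught 9 genes whose known work lies elsewhere (CCNL2, CDK12, CDKN2AIPNL, CDC37, CDC42, CDC42EP1, CDC42EP5, POLDIP2 and KIF1C), which left 31 genes in the strict sense. A gene entered through a table of differences between the same libraries, so the counts below were read against all genes of that table.

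FaDu is a human squamous cell carcinoma line of the hypopharynx. Lentivirus-delivered hairpin RNAs had given stable lines, a control line (shNC) and a line depleted of NAT10 (shNAT10), NAT10 being the enzyme that acetylates cytidine in RNA. Fragmented RNA was pulled down with an ac4C antibody (IP) and sequenced beside the RNA before pull-down (input). The study's methods name total RNA as the starting material and its results name mRNA, so which was used is unclear. Each condition had 1 IP and 1 input library, so no difference between the conditions has a replicate, no test was run, and no p-value below compares the conditions. The study used more than 1 hairpin against NAT10, and the labels do not say which one these cells carried. Which peak list belongs to which condition was read from a prefix shared by the lists and the library titles. The lists hold peaks and not reads, so neither the level of NAT10 mRNA nor that of any member can be read from them (the study checked NAT10 depletion in FaDu cells by RT-qPCR and western blot, not analysed here), and a higher fold enrichment cannot be told apart from a lower input. NAT10 itself had a peak in both lists, at chr11:34146720-34146870 with a fold enrichment of 6.91 in shNC and at chr11:34146612-34146850 with 12 in shNAT10. Of 10 markers looked up for squamous epithelium, 4 had a peak at their position, each in both conditions. These were KRT19, TP63, CDH1 and ITGB4, and the keratins KRT5, KRT6A, KRT14 and KRT17 had none. Of 6 markers of other cells, only COL1A1 had one, in shNC. These are counts of peaks and do not identify the cells.

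Progress through the cell cycle is driven by cyclins, which switch on cyclin-dependent kinases. D-type and E-type cyclins release E2F factors from the retinoblastoma protein, E2F factors turn on replication genes such as those of the MCM helicase, and B-type cyclins carry the cell into mitosis, where kinesins and tubulins build the spindle and the anaphase-promoting complex (APC/C) marks cyclins and securin for destruction. NAT10 deposits ac4C on ribosomal RNA, transfer RNA and messenger RNA, and on messenger RNA the mark has been tied to stability and translation.

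The values are fold enrichments, the ratio of IP over input signal that the peak caller gave each peak, with a log10 p-value for the peak against its own input. A peak was called shared where a peak of the same gene in the other list overlapped its exonic blocks by at least 1 bp, and pairs of shared peaks were compared by the ratio of their fold enrichments. The partners in a pair seldom had the same borders, so their values cover somewhat different stretches of RNA. A gene listed in 1 condition only may have had signal in the other that did not reach the caller's threshold.

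The member with the strongest listed enrichment was MZT2B (ENSG00000152082), which encodes a small protein of the gamma-tubulin ring complex that seeds microtubules. Its spliced peak farther 3′, at chr2:130188226-130190729 in shNC and ending at 130190670 in shNAT10, stood at 67.4 in shNC and 366 in shNAT10, 5.43-fold apart. The shNAT10 value was the highest of all 6417 peaks of that list. A second pair at the 5′ end of the same transcript went the other way within 2-fold, with 14.6 in shNC and 11.7 in shNAT10. The border of this pair is shown because it falls at the start of the coding sequence. The RefSeq bases from the start codon onward, GRCh38.p14, chr2:130182283-130182311, plus strand, are given 5′ to 3′ with the start codon in capitals.

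MZT2B: ATGgcggcgcagggcgtagggcctgggcc

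The shNC peak began upstream of this stretch, at 130182250, and held all 29 bases. The shNAT10 peak began at 130182310 and left out the first 27 of them, the start codon included. MZT2B has a near-identical copy, MZT2A, so reads shared by the copies make both sets of values uncertain.

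Across the 40 genes, 27 (67.5%) had a peak in both lists, 5 (12.5%) in shNC only and 8 (20%) in shNAT10 only. Over all 2483 genes with a differential peak, 58.9% were in both lists, 21.5% in shNC only and 19.6% in shNAT10 only. The order of the conditions depended on the peak threshold. With peaks of an FDR of at most 1e-10, 12 member genes were in shNC only (22.8% of all genes of the table were). At that FDR 8 were in shNAT10 only (20.3%) and 15 in both, where the share over all genes is not given. The 5 genes listed in shNC only were CCNE2, CDC6, CDKN2AIPNL, KIF20A and MCM2. The 8 listed in shNAT10 only were CCND3, CDC42EP5, CDK10, CDK12, CDKN1A, CEP120, CEP78 and KIF11. Within the 27 genes of both lists, 23 had at least 1 overlapping pair, and in ANAPC2, ANAPC7, E2F5 and TUBGCP2 the peaks of the conditions lay apart. ANAPC2 and ANAPC7 count as listed in both only through shNAT10 peaks with an FDR above 0.05. In the strict set of 31 genes, 4 were in shNC only, 6 in shNAT10 only and 21 in both.

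The members had 47 peaks in shNC and 53 in shNAT10. Of the shNC peaks, 28 were shared (59.6%, 95% Wilson interval 45.3 to 72.4%), and of the shNAT10 peaks, 29 were shared (54.7%, 41.5 to 67.3%), with 55.6% and 57% over all genes with a differential peak. These intervals cover the counting of peaks only. The median fold enrichment of member peaks was 15.2 in shNC, between 2.35 and 93.9, and 14.4 in shNAT10, between 2.12 and 366. Over all listed peaks the median was 12.4 in each condition. Member peaks had a median of 241 exonic bases in shNC and 240 in shNAT10, beside 210 and 209 over all peaks. An FDR of at most 1e-10 was met by 34 of 47 (72.3%) in shNC and 29 of 53 (54.7%) in shNAT10, beside 47.3% and 45.5% over all peaks. These last backgrounds hold every listed peak, also of genes without a differential peak, and may differ from the genes with one. Among the differential peaks, the median length was 284.5 exonic bases for members and 241 for all.

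The 28 pairs of overlapping member peaks had a median log2 ratio of shNAT10 over shNC of 0.24 (95% interval from the order of the values, -0.43 to 1.81), against -0.17 over the 1538 pairs of all genes with a differential peak and -0.08 over the 3188 pairs of all listed genes, both inside that interval. The ratio was at least 2-fold higher in shNAT10 in 11 member pairs (39.3%, against 25.6% of the 1538 pairs) and at least 2-fold lower in 5 (17.9%, against 29.4%). The lower count rests on few pairs: it was 3 of 23 where the overlap had to cover 50% of each peak (27.6% over all genes with a differential peak), 2 of 18 at an FDR of at most 1e-10 (25% over all), 3 of 21 in the strict gene set and 3 of 28 at 3-fold (19% over all). The 11 higher pairs came from ANAPC11, ANAPC16, CCND1, CCND2 with 3 pairs, CDC37, KIF1C, MCM4, MZT2B and TUBA4A. The 5 lower pairs came from CDC42, E2F1, MCM3, POLDIP2 and TUBA1C. Pairs of 1 gene share their transcript, and how the libraries were scaled to each other is unknown, so the ratios order the members within these libraries and do not give a change per molecule.

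The fold enrichments fell on a regular grid. Below 60, 47.5% of the shNC values were whole multiples of 0.691 and 50.9% of the shNAT10 values were whole multiples of 0.845, to within the rounding of the file, where values spread evenly would have met 8.86% and 7.4%. Among the members, 18 of 43 such peaks in shNC and 24 of 48 in shNAT10 were on the grid. Every peak below 60 of the member genes listed in shNAT10 only was on it. The same share over all genes listed in 1 condition only was not computed, so this cannot be read as a trait of the members. Of the genes listed in shNC only, CCNE2 was on it, CDC6, CDKN2AIPNL and KIF20A were not, and MCM2 lay above 60. The CDK10 and KIF11 peaks and the second CCNL2 peak in shNAT10, for example, were each listed at 14.4, which is 17 units, and a CDK12 and a CEP78 peak were each listed at 35.5, which is 42 units. A ratio over 1 common denominator would give such a grid, and whether a unit stands for a read was not tested. A step of 1 unit is the finest difference that such values can show.

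The cyclins were 6 genes, with 1 listed in shNC only, 1 in shNAT10 only and 4 with overlapping pairs. The D-type cyclins, partners of CDK4 and CDK6 in G1, each had their highest listed value in shNAT10. CCND2 (ENSG00000118971) had 3 peaks in shNC, at 4.18, 4.6 and 17.6, and 4 in shNAT10, at 13.3, 27.7, 16.1 and 44.8. All 3 overlapping pairs lay in the 3′-UTR. From 5′ to 3′ they were 6.63-fold higher in shNAT10 (4.18 and 27.7, near chr12:4300020-4300230), 3.5-fold higher (4.6 and 16.1, near chr12:4304721-4304931) and 2.55-fold higher (17.6 and 44.8, near chr12:4305140-4305350). The middle pair overlapped by 1 base only. The shNAT10 peak at 13.3, spliced across coding exons at chr12:4278796-4285331, had no counterpart in shNC. CCND1 had 1 shNC peak, at chr11:69653904-69654444 with 9.57, and 3 shNAT10 peaks. The one in the 3′-UTR at chr11:69653814-69654174 stood at 20.5, which is 2.14-fold higher than the shNC peak, the one at chr11:69654234-69654474 overlapped the same shNC peak with 7.77, and a weaker one upstream had 2.96. CCND1 also held the smallest peak p of the cyclins in each list, with log10 p of -50.6 in shNC and -72.1 in shNAT10. CCND3 was listed in shNAT10 only, at chr6:41935083-41935292 with 20.3. CCNE2, the E-type cyclin that activates CDK2 at the start of S phase, was listed in shNC only, with 31.1, and its peak reached beyond the end of the RefSeq gene. CCNB2, a B-type partner of CDK1 in mitosis, had a pair at 4.35 in shNC and 4.51 in shNAT10 and a further peak in shNAT10 at 9.97. CCNL2, a cyclin that works in pre-mRNA splicing, had 20 in shNC and 26.2 in shNAT10 in its pair, and an added shNAT10 peak at 14.4.

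None of the 4 genes of the kinase and inhibitor group had a peak in both lists, where 58.9% of all genes with a differential peak did. CDK12 and CDKN2AIPNL are among the 9 genes of other roles. Relatives without a differential peak, looked up by position as described at the end, were mixed. CDK2, CDK4, CDK5, CDK9, CDK16 and CDKN1B were listed in both. CDK1 and CDKN2A were listed in shNC only, and CDK3, CDK7, CDK13 and CDKN2C in shNAT10 only. CDKN1A, which encodes the cyclin-dependent kinase inhibitor p21, was listed in shNAT10 only, at chr6:36687010-36687279 in the 3′-UTR with 29.6. CDK10, a kinase that pairs with cyclin M, was listed in shNAT10 only with 14.4 and log10 p of -26.8, the smallest of the group in that list. CDK12, which phosphorylates the tail of RNA polymerase II, had 2 peaks in shNAT10 only, with 35.5 and 17.7. CDKN2AIPNL was listed in shNC only, with 21.9 and log10 p of -21.6.

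Both E2F genes of the set had their higher value in shNC. Among relatives without a differential peak, looked up by position, E2F2 had 47.7 in shNC and 15.2 in shNAT10. E2F4 was listed in shNC only with 20, and E2F3 in shNAT10 only with 35.5. E2F1, an activator of S-phase genes, had a pair in the 3′-UTR, 24.5 in shNC at chr20:33675713-33676070 and 7.61 in shNAT10 at chr20:33675713-33675862, 3.22-fold lower in shNAT10. The 2 peaks share their 3′ border, and the shNAT10 peak covers 150 bases of the 358 in shNC. E2F5, a repressor-type E2F that pairs with the retinoblastoma relatives p107 and p130, had 81.5 in shNC and 33.8 in shNAT10, in neighbouring 3′ windows that did not overlap. Its peaks had the smallest p of the pair of genes in each list, with log10 p of -32.8 in shNC and -9.54 in shNAT10. The shNC peak of E2F5 reached beyond the RefSeq gene end.

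Of the 7 CDC genes, 5 had overlapping pairs. CDC20, the activator of the APC/C at the metaphase to anaphase transition, had 15.2 in shNC and 11.2 in shNAT10, and its shNC peak had the smallest p of the group, with log10 p of -328. CDC25B, a phosphatase that activates CDK1, had a pair at 31.9 in shNC and 23.7 in shNAT10 and a weak upstream peak in shNAT10 at 2.12. CDC6, which loads the MCM helicase at origins, was listed in shNC only with 4.26. The other 4 genes share the letters and not the role. CDC37, a co-chaperone that brings kinases to HSP90, had 8.29 in shNC and 33.4 in shNAT10 at its 3′ end, 4.03-fold higher and with the smallest p of the group in shNAT10 (log10 p of -83.4), and 2.98 and 3.94 further 5′. CDC42, a small GTPase that shapes the actin cytoskeleton, had 39.4 in shNC and 4.95 in shNAT10 in its pair at chr1:22092616-22092856, 7.96-fold lower in shNAT10, and another shNC peak just upstream at 23.5. CDC42EP1, a CDC42 effector, had 5.53 and 4.08. CDC42EP5, of the same effector family, was listed in shNAT10 only, with 16.9 and 71.8.

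The APC/C subunits ANAPC11 and ANAPC16 had overlapping pairs, both higher in shNAT10, and ANAPC2 and ANAPC7 had peaks in different places in the 2 conditions. The shNAT10 peaks of ANAPC2 and ANAPC7 had an FDR above 0.05, so their difference in place rests on weak calls. ANAPC11, the RING subunit that recruits the ubiquitin-loaded enzyme, had 7.29 in shNC at chr17:81899947-81900245 and 61.3 in shNAT10 at chr17:81899947-81900186, 8.41-fold higher and with log10 p of -79.6. ANAPC16, a small subunit of the complex, had 3 peaks in each list. Its pair stood at 19.3 in shNC and 69.3 in shNAT10, 3.59-fold higher. The shNC peaks without a partner had 6.7, in the 5′-UTR, and 34.5, and the shNAT10 peaks without a partner had 3.34 and 5.07. ANAPC2, the cullin subunit, had 13.7 in shNC at chr9:137175083-137175464, with the smallest p of the group in that list (log10 p of -19.7), and 9.3 in shNAT10 at chr9:137186368-137186681. ANAPC7, a scaffold subunit, had 26.9 in shNC in the 3′-UTR and 8.45 in shNAT10 at a place where another gene was also listed with a peak.

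The 3 MCM genes, which encode subunits of the replicative helicase, differed in pattern. MCM2 (ENSG00000073111) was listed in shNC only, with a 3′-UTR peak of 539 bases at chr3:127621838-127622376, a fold enrichment of 92.5 and log10 p of -95. It was the second highest value of the members in shNC. MCM3 had 19.3 in shNC at chr6:52264039-52264488 and 7.18 in shNAT10 at chr6:52264278-52264488, 2.69-fold lower in shNAT10. MCM4 had the opposite order in its pair, 2.5 in shNC and 20.3 in shNAT10, 8.12-fold higher, and the shNAT10 peak had log10 p of -40.8, the smallest of the replication group in that list. A further shNC peak of MCM4 had 13.8 and lay just downstream of the shNAT10 peak. POLDIP2, a protein that binds DNA polymerase delta and works in several other places, had the highest member value in shNC, 93.9, and 18.2 in shNAT10 over nearly the same 3′-UTR window at chr17:28347207-28347714, 5.16-fold lower. It had another shNAT10 peak at 3.1. It was the only gene of the table whose symbol began with POLD or POLE.

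**Figure D1:**
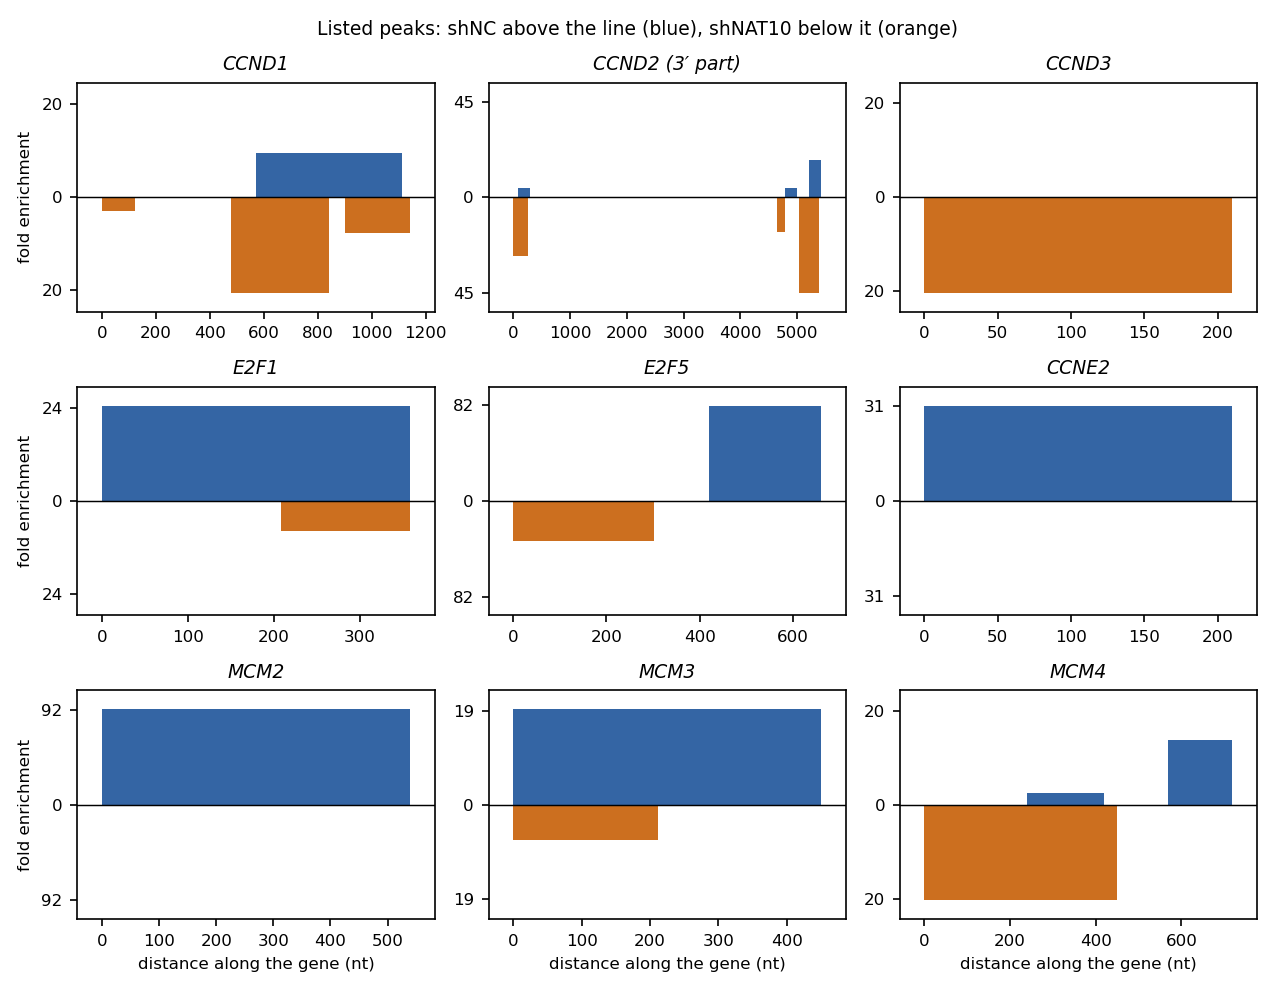
Listed peaks of 9 D-type cyclin, cyclin E2, E2F and MCM genes, drawn 5′ to 3′ along each gene with distance in nucleotides from the first listed peak; bar height is fold enrichment, IP over input, from 1 library pair per condition, with shNC drawn upward in blue and shNAT10 drawn downward in orange, and the axis scale differs between panels. CCND2 shows its single-block peaks only (its spliced shNAT10 peak is left out), CCND3 has orange alone, CCNE2 and MCM2 have blue alone, and the E2F5 peaks lie side by side without overlap.

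The 3 kinesin genes fell into 3 patterns. KIF11, the motor that pushes spindle poles apart, was listed in shNAT10 only, with 14.4 in the 3′-UTR. KIF20A, a motor of the central spindle needed for cytokinesis, was listed in shNC only, at chr5:138187385-138187595 with 25.9 and log10 p of -14.5. KIF1C, a motor for vesicle transport, had 3.45 in shNC and 22.5 in shNAT10 in its 3′-UTR pair, 6.52-fold higher with log10 p of -29.4, and another shNC peak at 3.04.

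The centrosome genes CEP120 and CEP78 were listed in shNAT10 only. CEP120, which helps centrioles to elongate, had 53.2 at chr5:123345005-123345215. CEP78 had 3 peaks, with 13.5, 35.5 and 6.76. The weakest of these, like the shNAT10 peaks of ANAPC2 and ANAPC7, had an FDR above 0.05 in the authors' list. CENPB, which binds a sequence box in centromeric satellite DNA, had 9.67 in shNC and 7.61 in shNAT10, with log10 p of -68.6 and -38.7, the smallest of this group in each list.

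All 7 tubulin and nucleation genes had peaks in both lists, as did 58.9% of all genes with a differential peak, and 6 had overlapping pairs. Relatives without a differential peak, looked up by position as described at the end, were less uniform. TUBG1, TUBG2 and MZT1 were listed in shNC only, TUBGCP6 in shNAT10 only and MZT2A in both. Among the alpha-tubulins, TUBA4A had 40.7 in shNC at chr2:219250311-219250730 and 170 in shNAT10 at chr2:219250311-219251120, 4.18-fold higher, and a further shNC peak at 17.3. TUBA1C had the opposite order, 25 in shNC and 9.41 in shNAT10, 2.66-fold lower over nearly the same 716 bases. TUBA1B had 42.6 in shNC and 31.7 in shNAT10, within 2-fold. Among the beta-tubulins, TUBB had 24.2 and 27.9 in its main pair and 4.11 and 4.98 in the next, plus 2 weak peaks in shNC alone with 2.35 and 3.38. Its main pair had the smallest p of all members in each list, with log10 p of -4570 in shNC and -4350 in shNAT10. TUBB4B had 40.3 in shNC and 26.3 in shNAT10. TUBGCP2, a gamma-tubulin complex subunit, had 3 shNC peaks, with 12.4, 8.43 and 3.45, and 1 shNAT10 peak at 8.03 that lay between them without touching any. Coding sequences of the tubulins are close copies of each other, and TUBA1B and TUBA1C, or TUBB and TUBB4B, may share reads, so the values of these genes are uncertain. In the table of differential peaks the TUBA1B and TUBB4B peaks were classed as exon only, those of TUBA1C and TUBA4A as coding sequence, and those of TUBB as coding sequence or 3′-UTR.

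By position in the transcript, the 48 member peaks of the differential table were close to the whole table in the share in the 3′-UTR, 28 of 48 (58.3%, 44.3 to 71.2%) against 56.1%. The coding sequence held 12 (25%, 14.9 to 38.8%, against 19.4%), and 6 (12.5%) were classed as exon without a finer class, against 23.7%. The 5′-UTR held 2 of 48 (4.17%, 1.15 to 14%), in ANAPC16 and CDC42EP5, against 0.677% of all 2807 rows. None of the 48 was classed at the stop codon, a class that held only 0.178% of all 2807 rows. Of the 48 rows, 22 overlapped peaks of both lists (45.8%, against 40.1% of all 2807 rows). Another 15 overlapped peaks of the shNC list only (31.25%, against 32.6%) and 11 of the shNAT10 list only (22.9%, against 27.3%).

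The table also gives positions of a C-rich repeat linked to ac4C, in which C is followed by any 2 bases, 4 times in a row (CNNCNNCNNCNN). At least 1 site lay in 32 of 48 member peaks (66.7%, 52.5 to 78.3%), against 60.9% of all rows. Site content differed with the place in the transcript. All 12 coding-sequence peaks and all 6 exon-only peaks of the members held a site, against 68.6% and 64.5% of all such rows. In the 3′-UTR, 12 of 28 member peaks held one (42.9%, 26.5 to 60.9%), against 56.6%. The coding-sequence peaks include repeated ones of MZT2B, TUBB and TUBGCP2 and those of TUBA1C and TUBA4A. TUBA1B and TUBB4B are among the exon-only ones. Peaks of 1 gene, or of tubulins with close coding sequences, are not independent, so these shares rest on fewer separate sequences. Of the 84 sites listed for members, 81 lay inside the exonic blocks of their peak, and 3, in ANAPC2 and TUBGCP2, lay between blocks. Counting the sites inside blocks, per 100 exonic bases the members had 0.507 in all, 0.750 in the coding sequence and 0.322 in the 3′-UTR, and the whole table had 0.490, 0.528 and 0.444. The member peak with most sites was that of CDC42EP1, with 7, followed by CDC37, MZT2B and TUBB with 6 each. Peaks without a site included those of MCM2, MCM3, CCNE2, CDKN1A, CEP120, KIF11 and KIF20A, all in the 3′-UTR. A site was present in 20 of the 22 member peaks listed in both conditions (90.9%, 72.2 to 97.5%), the exceptions being CDC42 and MCM3, in 7 of the 15 listed in shNC only and in 5 of the 11 listed in shNAT10 only. The same shares over the whole table were 73.6%, 52.6% and 52.2%. Longer peaks have more room for a site, and the part of length in these shares was not tested.

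**Figure D2:**
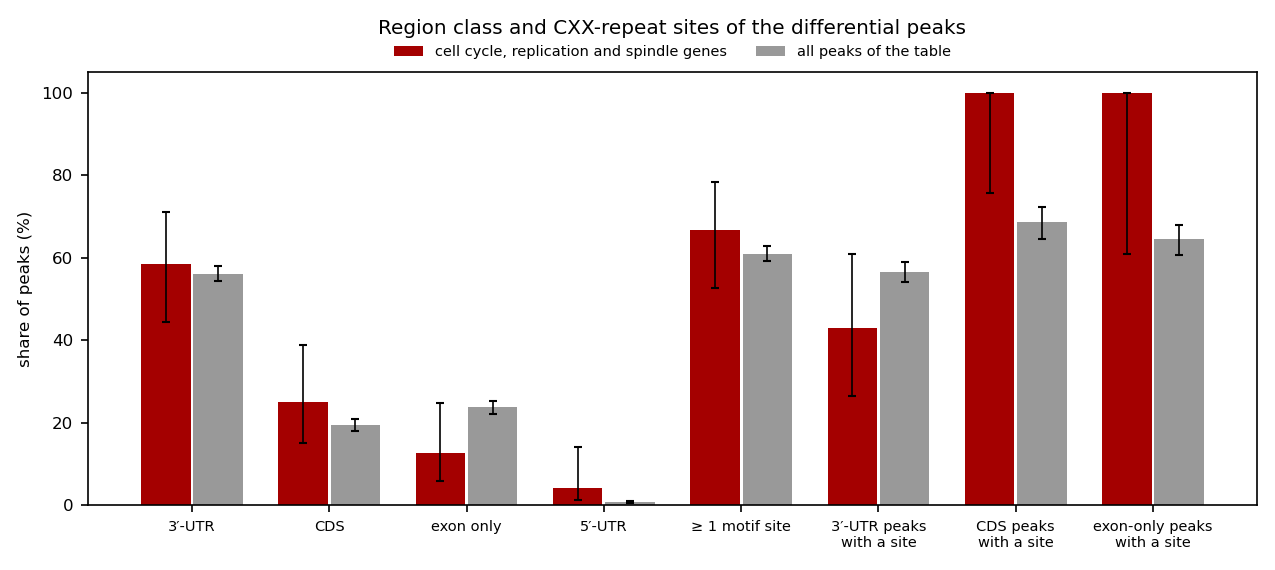
Share of peaks, in percent, by region class and by presence of a CNNCNNCNNCNN site for the 48 member peaks (red) and all 2807 peaks (grey) of the differential table; bars start at 0 and error lines are 95% Wilson intervals that cover the counting of peaks only. The 3′-UTR share is 58.3% in the members and 56.1% in all, and sites are present in all coding-sequence and exon-only member peaks but in 42.9% of the 3′-UTR ones.

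Beyond the symbol rule, a list of 134 further genes of replication, the G1/S switch, cyclin destruction, the spindle checkpoint and chromosome structure was looked up. Of these, 38 had a symbol in the table of differential peaks: 9 had a peak in shNC only, 8 in shNAT10 only, 17 had overlapping peaks in both and 4 had peaks apart. The shares, 23.7% in shNC only, 21.1% in shNAT10 only and 55.3% in both, were near the 21.5%, 19.6% and 58.9% of all genes of the table. The examples that follow were chosen after their values were seen, and each value is the highest of that gene in its list. Among G1/S regulators, MYBL2, a transcription factor that works with E2F targets, had 148 in shNC and 35.1 in shNAT10, and CKS1B, a small kinase partner, had 15.5 and 89.6. Among replication genes, the clamp-loader subunits RFC2, with 8.58 in shNC and 76.9 in shNAT10, and RFC4, with 82.8 in shNAT10 only, both had their higher value in shNAT10, while RRM2, a subunit of ribonucleotide reductase, was listed in shNC only with 7.25. Among mitotic genes, BUB3, a checkpoint protein, had 38 in shNC and 3.97 in shNAT10. The checkpoint genes BUB1B and TTK were listed in shNAT10 only with 49.9 and 48.2. AURKB, the kinase of the chromosomal passenger complex, had 66.8 and 49. Neither condition held the higher values throughout, in this list or among the members.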

How the data were processed

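ac4C peaks of 4 libraries (1 IP and 1 input for shNC and for shNAT10) were analysed. The authors deposited a peak list for each condition, with a linear ratio of IP to input (fold enrichment), a p-value, and log10 p and log10 FDR (here kept as a score), and a table of 2807 differential peaks with region class, symbol, Ensembl ID and the number and positions of motif sites (other). That table's log2 fold change, p-value and FDR between conditions were not used. The submitters' processing notes name cutadapt 2.5, HISAT2 2.1.0, HOMER 4.10.4 and featureCounts 1.6.3; the peak caller is not given in the sources used here. Positions are 1-based on GRCh38. Depth is unknown.

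Members were taken by symbol and linked to the peak lists by Ensembl ID. Peaks overlapped where exonic blocks of 1 gene and strand shared at least 1 bp, and pairs were mutual best overlaps. Shares have 95% Wilson intervals. No test between conditions was possible, and no p-value across genes was computed. Values were given for every member; the plan had asked for those at 2-fold or more, the 5 highest of each list, those with several peaks and the smallest p of each family. Members and lists were chosen with earlier results of these data known. The grid of fold enrichments and the naming of genes by RefSeq position (GRCh38.p14; 4755 of 5101 placed peaks, 93.2%, fell on the gene of their own symbol) were added after the data were seen. On simulated data from 6347 shNC peaks, the overlap script was checked and found all 3146 planted overlaps and 0 others. The planted peaks were exact copies and the rest were moved far away, so partial overlaps and shifted borders were not checked. Alternatives were stricter peaks, stricter overlap, other folds, the strict gene set and peaks free of other genes. Scripts ran in Python 3.11.15 (matplotlib 3.10.9, scipy 1.17.1, pandas 2.3.3, numpy 2.4.6).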

Additional observations from a re-analysis of the deposited data

How the results depend on the processing

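No paired analysis was possible because shNC and shNAT10 each had a single IP and a single input library. Of 50 alternatives, 43 left the value within 1.5 times the reported count or within its interval, and 7 moved it. Many of the 43 had little room to move. Leaving out peaks that overlap another gene's kept all 47 shNC member peaks and 52 of the 53 in shNAT10, and several intervals are wide. The 43 is therefore no measure of robustness. With peaks of an FDR of at most 1e-10, the genes listed in shNC only went from 5 to 12 and the genes in both lists from 27 to 15, while those in shNAT10 only numbered 8 in either case, so that the condition with more genes of its own turned from shNAT10 to shNC. The number of pairs at least 2-fold lower in shNAT10 went from 5 to 3 when the overlap had to cover 50% of each peak, to 2 at an FDR of at most 1e-10, to 3 without the 9 genes of other roles, and to 3 at 3-fold. The higher pairs ranged from 8 to 11 over the same settings. Asking for at least 2 motif sites gave 45.8% of member peaks in place of 66.7%. The median log2 ratio of member pairs ranged from 0.05 (fold enrichment of at least 4) to 0.28 (50% overlap). The fold enrichment is coarse where it falls on the grid described above, a missing peak is not a missing mark, and 1 library per condition leaves the spread between cultures unknown.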

Other observations

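Many genes of these families have no row in the differential table, and only that table pairs symbols with identifiers. Their peaks were looked up by RefSeq position, which leaves overlapping genes uncertain. Of 225 genes that fit the symbol rule without a row there, 84 had a listed peak at their position: 20 in shNC only, 24 in shNAT10 only and 40 in both, of which 35 had overlapping peaks. These are 23.8%, 28.6% and 47.6% of the 84, near the 25.8%, 26% and 48.2% of all 6723 listed genes. The examples were chosen after their values were seen, and each value is the highest of that gene in its list. Among the kinases of the G1 and S phases, CDK4, the partner of D-type cyclins, had 44.9 in shNC and 62.7 in shNAT10, and CDK2 had 8.01 and 22. CDK1, the mitotic kinase, was listed in shNC only with 4.83. The inhibitor CDKN1B, which encodes p27, had 34.5 and 33.8. Of the cyclins of later phases, CCNA2 had 21.4 in shNC and 17.7 in shNAT10, and CCNB1 had 4.6 and 27.9. The other helicase subunits again differed among themselves, with MCM6 at 41.4 in shNC and 11.8 in shNAT10 and MCM7 at 36.7 and 61.7. E2F3 and CEP164 were listed in shNAT10 only, with 35.5 and 41.4, while E2F2 and E2F4, given above, had their higher value in shNC. MZT2A, the near-identical copy of MZT2B, had 5.27 in shNC and 28.3 in shNAT10. By the same lookup, 92 of the 134 further cell cycle genes had a peak, 27 in shNC only (29.3%), 26 in shNAT10 only (28.3%) and 39 in both (42.4%).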
